A study of Mus musculus with 20 samples.

Results

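The genes described here are 10 genes of cartilage formation and tissue calcification, Mgp, Sox9, Runx2, Bmp2, Bmp4, Alpl, Enpp1, Chad, Comp and Ank, followed in RNA-seq of mouse abdominal aorta. They were chosen by name, and the values of the listed annotated transcripts of a gene were added up. Of the 10 genes, 9 had a listed transcript and 8 averaged 1 FPKM or more in the 15 libraries used, the minimum for a test, among 15346 genes with a listed annotated transcript and 12645 genes tested. FPKM, the unit of every level below, counts fragments relative to transcript length and to library size. The libraries fall into 3 groups of 5. The KO Ang II libraries carry a knockout label and came from mice given angiotensin II (Ang II), the vasoconstrictor peptide of the renin system, at 500 ng per kg per min. The WT Ang II libraries came from wild-type mice given the same dose, and the WT saline libraries came from wild-type mice given saline. The title of the series names DAPK1, a protein kinase that calmodulin regulates. The labels give no allele, targeted cell type, strain, age or length of treatment, and they do not say how many animals went into a library. The p-values below therefore measure the spread between these libraries. Libraries are named by their title, in which NS stands for saline, as in WTNS_369. Wherever a gene's values in 5 libraries are listed, the order is KOAng_II402, KOAngII537, KOAngII560, KOAngII612 and KOAngII628, then WTAng_II519, WTAng_II536, WTAngII568, WTAngII580 and WTAngII581, then WTNS_369, WTNS_373, WTNS_523, WTNS_547 and WTNS_550. A comparison such as KO Ang II over WT saline is written as the log2 value in the group named before "over" minus that in the group after it. A further group of KO libraries given saline was not analysed here.

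Arteries can calcify when cells of the wall take on features of cartilage or bone cells, or when the factors that keep mineral in solution are lost. Inorganic pyrophosphate is the best known of these factors. The enzyme ENPP1 makes it from nucleotides outside the cell, ANK promotes its release from cells, and the phosphatase encoded by Alpl splits it into phosphate, which favours mineral. MGP, a small vitamin K-dependent protein of vessel wall and cartilage, also holds mineral back, and mice without it calcify their arteries. BMP2 and BMP4 are secreted ligands that drive bone and cartilage programmes, SOX9 and RUNX2 are the transcription factors that define chondrocytes and osteoblasts, and COMP and CHAD are proteins of the cartilage matrix.

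The depth worked out from the steps between low FPKM values was 70.16 to 73.44 megareads in the KO Ang II libraries, 59.07 to 74.56 in the WT Ang II libraries and 62.78 to 67.18 in the WT saline libraries. Smooth muscle markers, 10 genes that include Acta2, summed to 5692 to 10373 FPKM in KO Ang II, 7115 to 14811 FPKM in WT Ang II and 5829 to 13106 FPKM in WT saline. The KO label could not be checked from RNA, since Dapk1 averaged 8.58 ± 3.51 FPKM in KO Ang II, 10.7 ± 5.79 in WT Ang II and 12.1 ± 2.39 in WT saline (SD, n = 5 each). RNA of tissues other than the vessel wall was measured in varying amounts. Brown adipocyte markers summed to 344.2 to 2387 FPKM in KO Ang II, 141.7 to 2393 in WT Ang II and 556.4 to 3115 in WT saline. Sympathetic neuron markers summed to 6.04 to 899.8 FPKM in KO Ang II, 10.6 to 148.6 in WT Ang II and 9.89 to 457.4 in WT saline, and were higher in KO Ang II than in WT Ang II in 9 of 10 genes (median log2 difference 2.08). Schwann cell markers summed to 36.03 to 159.5 FPKM in KO Ang II, 23.7 to 64.7 in WT Ang II and 24.3 to 70.3 in WT saline, and were higher in KO Ang II than in either WT group in 7 of 7 genes, with no gene of either list called by limma. Intestinal markers summed to 26.0 to 63.03 FPKM in the 5 KO Ang II libraries, to 21.3 and 18.61 FPKM in WTAngII580 and WTAngII581, and were listed at 0 in the other 3 WT Ang II libraries and in all WT saline libraries. Their part in the differences of KO Ang II over WT saline cannot be told apart from that of the groups. In bulk tissue, fewer cells of a type and less RNA per cell cannot be told apart.

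No gene of the set passed the test in any comparison, with limma on log2(FPKM + 1) and a Benjamini-Hochberg adjusted p of 0.05 over 12645 genes. In WT Ang II over WT saline, 0 of the 8 tested genes were called and the background was 0% of all genes. The count was 0 of 8 against 0% of all genes in KO Ang II over WT Ang II, and 0 of 8 against 0.103% in KO Ang II over WT saline. That 0.103% is 13 genes, of which 8 are the intestinal markers summed above. At an unadjusted p below 0.05 the counts were 0, 0 and 1 of 8, and the 1 gene was Alpl. The same threshold took 4.88%, 7.94% and 8.37% of all genes in the same 3 comparisons. On the log2 scale, 6 of the 8 genes had a positive difference in WT Ang II over WT saline, with a median of 0.29 beside 0.01 over all genes. A positive difference was seen in 4 of 8 in KO Ang II over WT Ang II, with a median of 0.03 beside -0.01 for all genes. It was seen in 5 of 8 in KO Ang II over WT saline, with a median of 0.24 beside 0.02 for all genes. The last 2 comparisons share the KO Ang II libraries, and each WT group is in a pair of comparisons, so the 3 sets of values are not independent. In all 24 pairings of a gene with a comparison, the values of the groups overlapped. Over all 12645 genes they did not overlap in 126 genes in WT Ang II over WT saline, 141 in KO Ang II over WT Ang II and 231 in the remaining comparison, so that none of 8 is what the background gives.

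**Figure D1:**
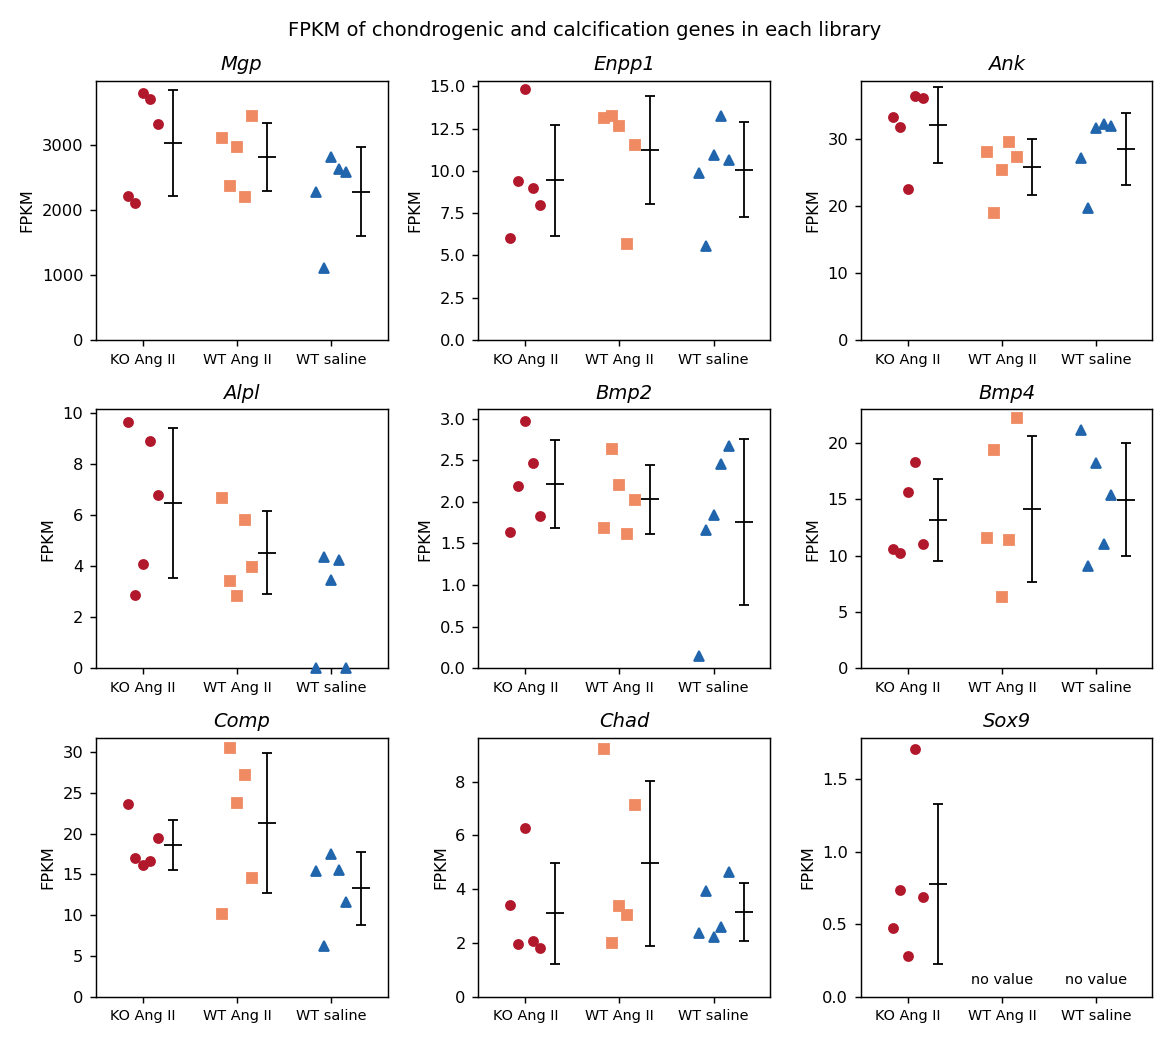
Level of each of the 9 genes with a listed transcript, in FPKM (vertical axis, from 0, a separate scale for each gene), in the libraries of KO Ang II, WT Ang II and WT saline. Each point is 1 library and the bars give the mean ± SD of 5 libraries, left out for Alpl in WT saline, where 2 libraries are listed at 0. The groups overlap in every gene measured in all 3, and Sox9 has values in KO Ang II alone.

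The plot of levels by library shows how far apart the genes stand, on a per-length scale that allows levels of different genes to be set side by side. Mgp had a mean of 2709 FPKM over the 15 libraries, above 99.87% of the genes tested. Ank followed with 28.78, Comp with 17.69, Bmp4 with 14.08, Enpp1 with 10.25, Alpl with 4.46, Chad with 3.73 and Bmp2 with 2.003 FPKM. Bmp2 was above 14.57% of the genes tested, near the lower end of what was measured. Some steps in this order held in nearly every library: Mgp was above Ank in 15 of 15 and Ank above Comp in 14 of 15. Others did not, since Comp was above Bmp4 in 8 of 15 libraries and Alpl above Chad in 9 of 15. Bmp4 was above Enpp1 in 12 of 15, Enpp1 above Alpl in 13 of 15, and Chad above Bmp2 in 12 of 15. Ank varied least among the genes listed above 0 in every library, with a 1.92-fold range between its lowest and highest library, and Bmp2 varied most, with 19.7-fold. That range of Bmp2 rests on WTNS_369 alone, at 0.151 FPKM, since the other 14 libraries lay between 1.61 and 2.97 FPKM.

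Mgp lies on chromosome 6 (GRCm38 chr6:136872435-136875823, minus strand). It stood at 2211.6, 2100.1, 3790.3, 3710.3 and 3326.3 FPKM in KO Ang II. The WT Ang II libraries had 3105.8, 2363.6, 2963.9, 2201.4 and 3450.4 FPKM. The WT saline libraries had 2280.1, 1098.2, 2813.1, 2626.8 and 2589.4 FPKM. A single low library, WTNS_373, lay far under the rest, while 3 of 5 KO Ang II libraries and 3 of 5 WT Ang II libraries were above the highest WT saline library. The means were 3028 ± 816 FPKM in KO Ang II, 2817 ± 522 in WT Ang II and 2282 ± 689 in WT saline (SD, n = 5 each). On the log2(FPKM + 1) scale the difference was 0.36 ± 0.27 (SE) in WT Ang II over WT saline (95% interval -0.22 to 0.93, limma adjusted p = 0.941). It was 0.08 ± 0.27 in KO Ang II over WT Ang II (-0.50 to 0.66, adjusted p = 0.948) and 0.44 ± 0.27 in KO Ang II over WT saline (-0.14 to 1.01, adjusted p = 0.727). Without WTNS_373, the low library, the difference was 0.11 in WT Ang II over WT saline and 0.19 in KO Ang II over WT saline. The inhibitor was thus among the most abundant RNAs of the aorta in each group, and the 95% interval of each difference between groups held 0.

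The genes of the pyrophosphate pathway were listed at far lower levels than Mgp. Enpp1, the enzyme that makes pyrophosphate, lies at chr10:24637914-24712159 on the minus strand. It had 6.04, 9.40, 14.9, 8.98 and 7.99 FPKM in KO Ang II, against 13.1, 13.3, 12.7, 5.65 and 11.5 FPKM in WT Ang II and 9.89, 5.55, 10.9, 13.3 and 10.7 FPKM in WT saline. Of the 5 WT Ang II libraries 4 lay between 11.5 and 13.3 FPKM and WTAngII580 lay alone at 5.65, while KO Ang II and WT saline were spread over nearly the whole range. The group means were 9.45 ± 3.29 FPKM in KO Ang II, 11.2 ± 3.20 in WT Ang II and 10.1 ± 2.82 in WT saline (SD, n = 5 each). The log2 difference was -0.23 ± 0.26 (SE) in KO Ang II over WT Ang II (95% interval -0.79 to 0.34, limma adjusted p = 0.801). It was 0.14 ± 0.26 in WT Ang II over WT saline (adjusted p = 0.958) and -0.09 ± 0.26 in KO Ang II over WT saline (adjusted p = 0.958). The sign of the first of these turned to 0.10 with marker levels of brown adipocytes, sympathetic neurons and skeletal muscle in the model. In libraries matched on intestinal transcripts it turned to 0.14, where WTAngII580, the low library, and WTAngII581 alone stood for WT Ang II. Leaving out 1 library at a time, this difference stayed negative, at -0.43 to -0.10. Its interval holds 0, so the data set no direction for Enpp1.

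Ank, whose product promotes the release of pyrophosphate, lies at chr15:27466677-27594909 on the plus strand. Its levels were 33.3, 31.7, 22.5, 36.4 and 36.1 FPKM in KO Ang II, 28.1, 18.9, 25.3, 29.5 and 27.2 FPKM in WT Ang II and 27.1, 19.7, 31.6, 32.2 and 31.96 FPKM in WT saline. Of the 5 KO Ang II libraries 4 were above all WT Ang II libraries, and the fifth, KOAngII560, lay inside their range. The mean was 32.02 ± 5.66 FPKM in KO Ang II, 25.8 ± 4.12 in WT Ang II and 28.5 ± 5.34 in WT saline (SD, n = 5 each). In KO Ang II over WT Ang II the log2 difference was 0.30 ± 0.17 (SE), with a 95% interval of -0.06 to 0.66 and a limma adjusted p of 0.635. It was -0.13 ± 0.17 in WT Ang II over WT saline (adjusted p = 0.949) and 0.16 ± 0.17 in KO Ang II over WT saline (adjusted p = 0.862). Leaving out 1 library at a time, these 3 differences ranged over 0.19 to 0.41 (the lowest without WTAng_II536), -0.25 to -0.03 and 0.04 to 0.28. With the smallest standard error of the set, Ank is the gene whose intervals bound a change most tightly. The span of Ank overlaps that of Otulin, a gene on the opposite strand, and whether their exons share bases was not tested. Reads of any shared bases cannot be told apart, since the labels do not say whether the kit kept the strand.

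Alpl, the phosphatase that removes pyrophosphate, lies at chr4:137741733-137796384 on the minus strand and gave the widest differences of the set. It had 9.64, 2.88, 4.09, 8.91 and 6.79 FPKM in KO Ang II, 6.64, 3.41, 2.82, 5.79 and 3.95 FPKM in WT Ang II, and 4.34, 3.47 and 4.23 FPKM in WTNS_373, WTNS_523 and WTNS_547. WTNS_369 and WTNS_550 listed it at 0. In the libraries above 0 the groups overlapped: 3 of 5 KO Ang II libraries were above every WT saline library, and the other 2, at 2.88 and 4.09 FPKM, were below the highest of them. The mean was 6.46 ± 2.94 FPKM in KO Ang II and 4.52 ± 1.63 in WT Ang II (SD, n = 5 each). The log2 difference was 1.40 ± 0.50 (SE) in KO Ang II over WT saline, with a 95% interval of 0.33 to 2.48, an unadjusted p of 0.0140 and a limma adjusted p of 0.444. It was 1.02 ± 0.50 in WT Ang II over WT saline (-0.05 to 2.10, adjusted p = 0.941) and 0.38 ± 0.50 in KO Ang II over WT Ang II (-0.69 to 1.46, adjusted p = 0.823). Leaving out 1 library at a time, the last ranged over 0.23 to 0.59, with the lowest without KOAng_II402 and the highest without KOAngII537.

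These Alpl differences against WT saline rest on the pair of libraries listed at 0. Without them, a setting chosen after the values were seen, the log2 difference was 0.10 in WT Ang II over WT saline (limma adjusted p = 0.998) and 0.48 in KO Ang II over WT saline (adjusted p = 0.999). Of the 12645 tested genes, 564 had at least 1 library listed at 0, and 184 of these had a median of at least 2 FPKM, as Alpl has. The cause of these zeros was not tested.

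The ratio of Alpl to Enpp1, the enzyme that removes pyrophosphate over the one that makes it, was computed for each library as a description. It was 1.597, 0.307, 0.276, 0.993 and 0.849 in KO Ang II, 0.507, 0.257, 0.223, 1.026 and 0.343 in WT Ang II, and 0.781, 0.318 and 0.319 in WTNS_373, WTNS_523 and WTNS_547. The ratio was 0 in the WT saline libraries without Alpl. It was highest in KOAng_II402, where Enpp1 was lowest of its group and Alpl highest. All 3 groups held libraries near 0.3, and 3 KO Ang II libraries, 1 WT Ang II library and 1 WT saline library were above 0.7.

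Mouse Alpl has 2 starts in RefSeq (GRCm38.p6), 29909 bases apart, and the tables list just 1 of its 8 annotated transcripts, Alpl-201, which begins at the distal start. The windows of 250 bases upstream of both starts are shown because the listed Alpl transcript begins at the distal one, and those of Enpp1 and Ank because their products act on the same metabolite. The part of each start in the level of Alpl above was not tested. Capitals mark matches, on either strand, to a TATA box (TATAAA) and to a GC box (GGGCGG), and to a RUNX motif (ACCACA), since RUNX2 is the osteoblast factor of the set. Sequences are on the strand of the gene, 5′ to 3′. The Alpl windows are chr4:137796385-137796634 and chr4:137766476-137766725 on the minus strand, the Enpp1 window is chr10:24712160-24712409 on the minus strand and the Ank window is chr15:27466427-27466676 on the plus strand.
Alpl, distal start: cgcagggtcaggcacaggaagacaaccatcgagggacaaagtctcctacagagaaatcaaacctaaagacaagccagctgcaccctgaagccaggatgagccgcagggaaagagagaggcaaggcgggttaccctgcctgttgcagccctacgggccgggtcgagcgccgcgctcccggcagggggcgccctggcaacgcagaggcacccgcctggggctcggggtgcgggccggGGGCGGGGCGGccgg
Alpl, proximal start: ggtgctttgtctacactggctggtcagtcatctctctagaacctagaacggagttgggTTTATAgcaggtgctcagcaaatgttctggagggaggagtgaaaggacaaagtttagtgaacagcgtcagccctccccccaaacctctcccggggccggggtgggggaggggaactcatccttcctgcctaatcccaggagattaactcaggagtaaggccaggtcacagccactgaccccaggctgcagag
Enpp1: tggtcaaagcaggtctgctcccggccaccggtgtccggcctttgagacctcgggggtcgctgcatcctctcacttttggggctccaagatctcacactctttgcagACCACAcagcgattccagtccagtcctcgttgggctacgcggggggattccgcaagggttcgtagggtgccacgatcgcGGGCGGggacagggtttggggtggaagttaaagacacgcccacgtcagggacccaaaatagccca
Ank: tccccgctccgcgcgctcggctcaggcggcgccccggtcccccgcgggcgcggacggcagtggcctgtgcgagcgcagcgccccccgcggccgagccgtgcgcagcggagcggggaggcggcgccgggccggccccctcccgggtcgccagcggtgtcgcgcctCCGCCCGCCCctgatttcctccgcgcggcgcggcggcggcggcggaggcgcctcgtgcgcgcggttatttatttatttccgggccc
The distal Alpl window and the Ank window each held 2 GC boxes that share bases with each other, at 68.4% and 81.2% G and C. The proximal Alpl window held 1 TATA box and no GC box, at 56.0% G and C, and the Enpp1 window held 1 GC box and 1 RUNX motif, at 61.2%. Among 32851 mouse windows of the same length, 12.4% held the TATA box, 14.0% the RUNX motif and 32.7% the GC box. The Bmp4 window held 1 GC box, the Chad window 1 GC box and 1 TATA box and the Runx2 window 1 RUNX motif. A match describes the letters of the window and says nothing of binding.

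Bmp2 (chr2:133552159-133562885, plus strand), a ligand of the BMP family that induces bone, had 1.64, 2.19, 2.97, 2.47 and 1.83 FPKM in KO Ang II, 1.68, 2.64, 2.20, 1.61 and 2.03 FPKM in WT Ang II and 0.151, 1.66, 1.85, 2.46 and 2.68 FPKM in WT saline. The low value was WTNS_369, again one of the libraries in which Alpl was listed at 0, and the other 14 lay between 1.61 and 2.97 FPKM. The mean was 2.22 ± 0.528 FPKM in KO Ang II, 2.03 ± 0.416 in WT Ang II and 1.76 ± 0.992 in WT saline (SD, n = 5 each). The log2 difference was 0.23 ± 0.26 (SE) in WT Ang II over WT saline (limma adjusted p = 0.945), and -0.06 without WTNS_369. In KO Ang II over WT saline it was 0.31 ± 0.26 (adjusted p = 0.828), and 0.02 without that library. It was 0.08 ± 0.26 in KO Ang II over WT Ang II (95% interval -0.48 to 0.64, adjusted p = 0.943).

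Bmp4 (chr14:46383520-46390669, minus strand), the more abundant of the 2 ligands, had 10.6, 10.2, 15.6, 18.3 and 11.0 FPKM in KO Ang II, 11.6, 19.3, 6.28, 11.4 and 22.2 FPKM in WT Ang II and 21.2, 9.07, 18.2, 11.0 and 15.3 FPKM in WT saline. Each group held both low and high libraries, and the KO Ang II values lay inside the range of either WT group. Group means were 13.1 ± 3.61 FPKM in KO Ang II, 14.1 ± 6.46 in WT Ang II and 14.9 ± 4.997 in WT saline (SD, n = 5 each). The log2 difference was -0.02 ± 0.30 (SE) in KO Ang II over WT Ang II (95% interval -0.67 to 0.63, limma adjusted p = 0.993). It was -0.13 ± 0.30 in WT Ang II over WT saline (adjusted p = 0.967) and -0.15 ± 0.30 in KO Ang II over WT saline (adjusted p = 0.936). The spans of Gm15217 and Gm15222 overlap that of Bmp4 on the opposite strand, and reads of any bases shared with Bmp4 cannot be told apart here.

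Comp (chr8:70373558-70382066, plus strand), the thrombospondin family member of cartilage and tendon, had a higher mean in both Ang II groups than in WT saline. It had 23.6, 17.0, 16.2, 16.7 and 19.4 FPKM in KO Ang II, 10.2, 30.5, 23.7, 27.2 and 14.6 FPKM in WT Ang II and 15.4, 6.23, 17.6, 15.5 and 11.7 FPKM in WT saline. In WT Ang II 3 of 5 libraries were above every WT saline library, while WTAng_II519 and WTAngII581 lay among them, and the KO Ang II libraries lay close together between the extremes of WT Ang II. The mean was 18.6 ± 3.08 FPKM in KO Ang II, 21.2 ± 8.57 in WT Ang II and 13.3 ± 4.47 in WT saline (SD, n = 5 each). The log2 difference was 0.61 ± 0.29 (SE) in WT Ang II over WT saline, with a 95% interval of -0.02 to 1.24, an unadjusted p of 0.0568 and a limma adjusted p of 0.941. It was 0.51 ± 0.29 in KO Ang II over WT saline (adjusted p = 0.699) and -0.10 ± 0.29 in KO Ang II over WT Ang II (adjusted p = 0.938). Without WTNS_373, the library lowest in Comp, the first was 0.38 and the second 0.29.

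Chad (chr11:94565047-94569127, plus strand) encodes chondroadherin, a leucine-rich repeat protein that binds chondrocytes. It had 3.41, 1.95, 6.27, 2.07 and 1.83 FPKM in KO Ang II, 9.22, 1.999, 3.37, 3.05 and 7.13 FPKM in WT Ang II and 2.37, 3.93, 2.21, 2.58 and 4.63 FPKM in WT saline. WTAng_II519 and WTAngII581, the WT Ang II libraries lowest in Comp, were the highest in Chad. Over the 15 libraries Chad and Comp had a Pearson r of -0.465 and a Spearman rho of -0.568 (permutation p = 0.0809 and 0.0307, 0.421 and 0.200 after Benjamini-Hochberg adjustment over 52 relations), with r = -0.347 without the 2 libraries farthest from the median of Chad. After each group's mean was taken off, r was -0.71. The mean of Chad was 3.10 ± 1.88 FPKM in KO Ang II, 4.95 ± 3.07 in WT Ang II and 3.14 ± 1.078 in WT saline (SD, n = 5 each). The log2 difference was -0.49 ± 0.35 (SE) in KO Ang II over WT Ang II (95% interval -1.23 to 0.26, limma adjusted p = 0.673). It was 0.41 ± 0.35 in WT Ang II over WT saline (adjusted p = 0.941) and -0.08 ± 0.35 in KO Ang II over WT saline (adjusted p = 0.973). Without WTAng_II519, its highest library, the first was -0.25 and the second 0.18, and without WTAng_II536 the second was 0.62. The span of Chad overlaps that of Acsf2 on the opposite strand, and reads of any bases that both share cannot be told apart.

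Of the 2 master regulators, Sox9 (chr11:112782224-112787760, plus strand) had a listed transcript in the KO Ang II table alone, at 0.473, 0.740, 0.280, 1.71 and 0.688 FPKM. KOAngII612 was the highest at 1.71 FPKM, and the mean was 0.778 ± 0.553 FPKM (SD, n = 5). The tables hold transcripts that averaged 0.5 FPKM or more in a group, so the absence of Sox9 from the WT list allows a WT mean just under that value, and no comparison was made. Runx2 (chr17:44495987-44814797, minus strand), with 13 annotated transcripts, was not analysed here.

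**Figure D2:**
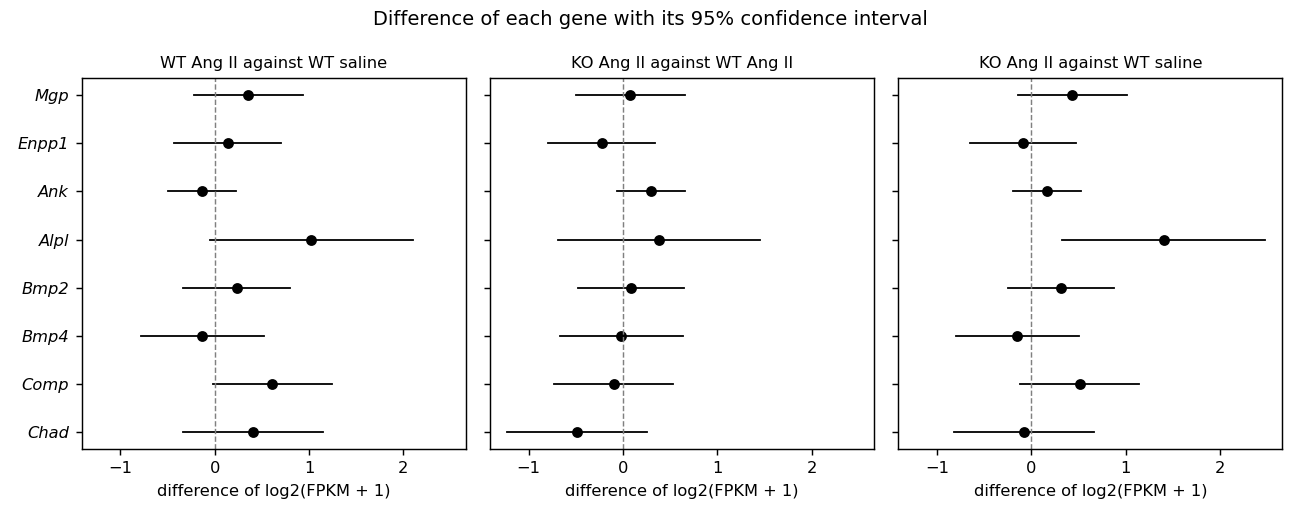
Difference of log2(FPKM + 1) (horizontal axis) of the 8 tested genes for WT Ang II over WT saline, KO Ang II over WT Ang II and, in the last panel, KO Ang II over WT saline, with points for the limma estimate and lines for its 95% confidence interval. The interval leaves out 0 for Alpl in KO Ang II over WT saline alone, where 2 WT saline libraries are listed at 0, and no gene passed after adjustment.

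The plot of differences with their intervals gives the size of change that these libraries leave possible. In KO Ang II over WT Ang II the interval of Ank reached from -0.06 to 0.66, so that a log2 difference of 1 on this scale lies outside it. The interval of Alpl reached 1.46 and that of Chad -1.23, so that a difference of 1 lies inside both. The interval of Bmp2 was -0.48 to 0.64, but the pseudocount of 1 shrinks the differences of a gene near 2 FPKM. With a pseudocount of 0.1 the difference of Bmp2 was 0.11 ± 0.52 (SE), and its data set no such bound.

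Mgp, Bmp4, Enpp1, Comp and Ank had more than 1 listed transcript. Mgp had Mgp-201, a coding transcript of 617 bases, and Mgp-202, a transcript of 715 bases in which an intron is kept. The retained-intron transcript took 1.345%, 1.201%, 1.099%, 1.222% and 1.386% of Mgp FPKM in KO Ang II, 1.716%, 2.050%, 2.332%, 1.621% and 1.781% in WT Ang II and 2.563%, 2.338%, 1.705%, 1.893% and 1.414% in WT saline. All 5 KO Ang II libraries lay below all 10 WT libraries, the lowest of which, WTNS_550, had 1.414%. The mean share was 1.25% ± 0.116 in KO Ang II, 1.90% ± 0.289 in WT Ang II and 1.98% ± 0.467 in WT saline (SD, n = 5 each). This share was looked at after its values were seen.

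Against 2298 genes with both kinds of transcript, Mgp did not pass. The value tested was log2(FPKM + 1) of the retained-intron transcripts minus that of the coding transcripts, a ratio in place of the share. Its difference was -0.59 ± 0.18 (SE) in KO Ang II over WT Ang II (95% interval -0.97 to -0.21, unadjusted p = 0.0046, limma adjusted p = 0.625). It was -0.64 ± 0.18 in KO Ang II over WT saline (unadjusted p = 0.00259, adjusted p = 0.635) and -0.05 ± 0.18 in WT Ang II over WT saline (adjusted p = 0.975). Of the 2298 genes 0% were called in each of the 3 comparisons, with 130 genes at an unadjusted p below 0.05 in WT Ang II over WT saline, 157 in KO Ang II over WT Ang II, and 167 for KO Ang II over WT saline. The groups did not overlap in 29 genes in each of the last 2 comparisons. Over all these genes 64.1% had a lower ratio in KO Ang II than in WT Ang II, with a median of -0.12 on the log2 scale. The summed share was 11.97% to 12.53% in the KO Ang II libraries, 12.07% to 13.91% in WT Ang II and 12.43% to 13.31% in WT saline. A lower ratio in KO Ang II was thus seen in most of these genes, and its part in the Mgp value was not tested. Bmp4 also had retained-intron transcripts, at 16.2% ± 3.05 of its FPKM in KO Ang II, 21.5% ± 6.87 in WT Ang II and 17.1% ± 6.61 in WT saline (SD, n = 5 each; limma adjusted p from 0.849 to 0.991).

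**Figure D3:**
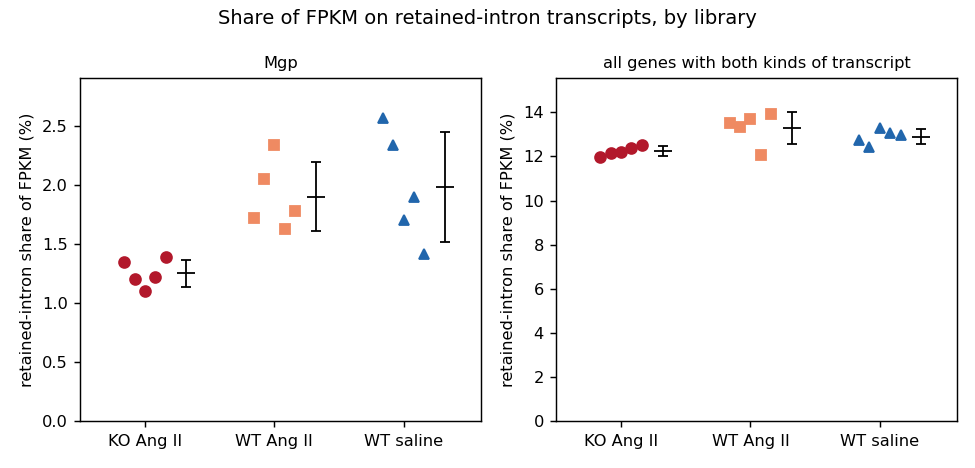
Share of FPKM (vertical axis, percent, from 0) on retained-intron transcripts in each library of KO Ang II, WT Ang II and WT saline, for Mgp and summed over all genes with both kinds of transcript. Points are libraries and bars the mean ± SD of 5; in Mgp the KO Ang II libraries (1.099% to 1.386%) lie below every WT library.

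Enpp1 had a pair of listed transcripts, and the minor one, Enpp1-203, reached 3.65 FPKM in KOAngII537 and 3.37 FPKM in WTAng_II536, 2 libraries of different groups, while it stayed at or below 0.54 FPKM in the other 13. Comp-203 was listed in the KO Ang II table alone, at 0.576, 0, 0, 1.32 and 1.55 FPKM. The Comp levels of KO Ang II above include it, and it counted as 0 in the WT libraries. The levels of Ank held a retained-intron transcript, Ank-202, at 1.61% of its FPKM in KO Ang II, 2.53% in WT Ang II and 1.90% in WT saline on average.

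The levels of 2 genes, Enpp1 and Mgp, moved with the tissue makeup of the libraries. The mean log2(FPKM + 1) of 8 brown adipocyte markers, 10 smooth muscle markers and 8 fibroblast markers was set against each of the 8 genes over the 15 libraries. With the 28 pairs of genes this made 52 relations, of which 4 had a Pearson permutation p below 0.05 after Benjamini-Hochberg adjustment. Enpp1 was higher in libraries with more smooth muscle RNA, with r = 0.835 and rho = 0.879 (permutation p = 9e-05 and 7e-05, adjusted p = 0.00468 and 0.00364), and r = 0.832 without the 2 libraries farthest from the median. It was lower in libraries with more brown adipocyte RNA, with r = -0.808 and rho = -0.829 (permutation p = 0.00026 and 0.00029, adjusted p = 0.00676 and 0.00754), and r = -0.776 without 2. Within groups, after each group's mean was taken off, r was 0.835 with smooth muscle and -0.836 with brown adipocyte markers. Enpp1 also went with fibroblast markers, with r = 0.711 and rho = 0.793 (permutation p = 0.00303 and 0.00072, adjusted p = 0.0481 and 0.0125), r = 0.616 without 2 and 0.699 within groups.

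Mgp was lower in libraries with more brown adipocyte RNA, with r = -0.682 and rho = -0.696 (permutation p = 0.0037 and 0.00522, adjusted p = 0.0481 and 0.0679), r = -0.639 without the 2 farthest libraries and -0.735 within groups. Its relation to smooth muscle markers did not pass, with r = 0.659 and rho = 0.629 (permutation p = 0.00635 and 0.0144, adjusted p = 0.066 and 0.107), and r was 0.322 without 2 and 0.787 within groups. No pair among the 8 genes passed, and the lowest adjusted p was 0.1, for Mgp and Enpp1 (r = 0.609, rho = 0.521, permutation p = 0.0135 and 0.0491). For this pair r was 0.313 without 2 and 0.703 within groups. FPKM are shares of a library, so RNA of one tissue lowers the values of the others, and how much of the spread of Enpp1 and Mgp this makes up was not tested.

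**Figure D4:**
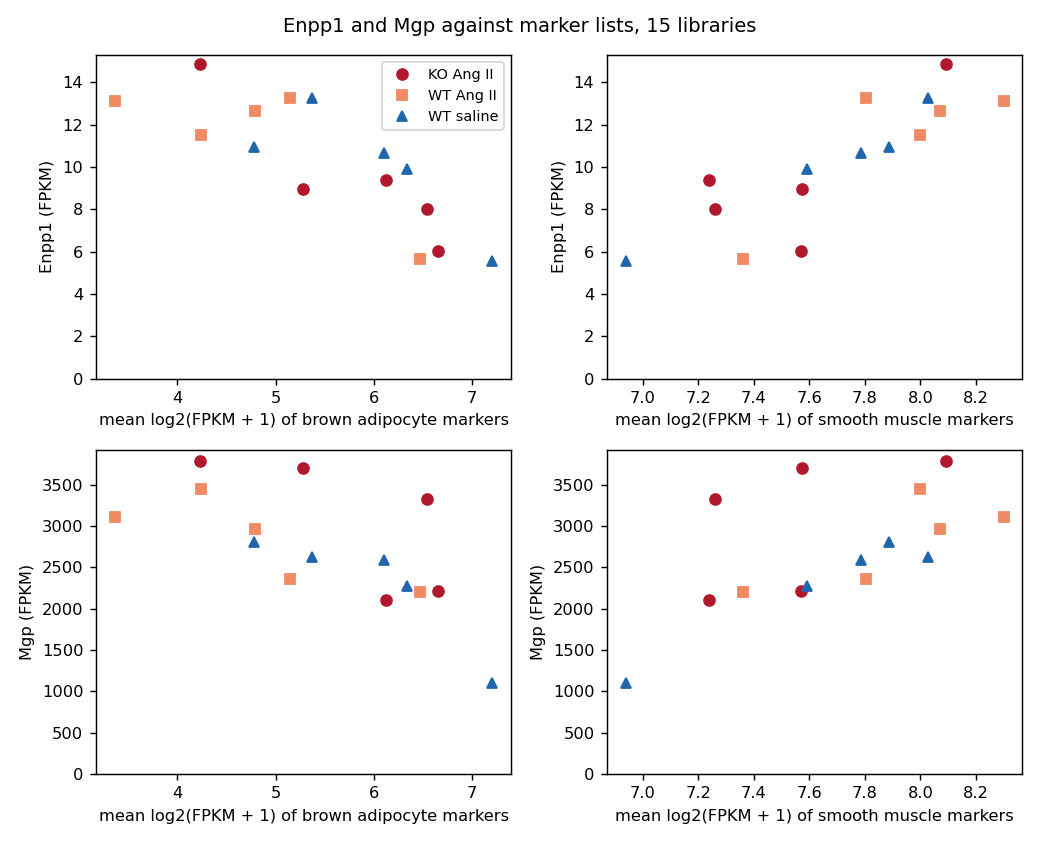
Enpp1 and Mgp in FPKM (vertical axes, from 0) against the mean log2(FPKM + 1) of brown adipocyte and smooth muscle markers (horizontal axes) in the 15 libraries, with KO Ang II, WT Ang II and WT saline as separate symbols. Enpp1 is lower toward the right of the brown adipocyte axis (r = -0.808) and higher toward the right of the smooth muscle axis (r = 0.835), with all 3 groups mixed along both.

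The listed markers of chondrocytes, osteoblasts and tendon cells, the cells in which these genes are best known, were low. Of 8 chondrocyte markers 2 had a listed transcript, Acan and Hapln1, while Col2a1 was not analysed here, and the 2 summed to 6.72 to 12.5 FPKM in KO Ang II, 2.38 to 11.1 in WT Ang II and 1.49 to 6.12 in WT saline. Of 8 osteoblast markers 3 were listed, Ibsp, Phex and Dlx5, and summed to 1.91 to 2.50 FPKM in KO Ang II, where Dlx5 was unlisted, 2.33 to 4.32 in WT Ang II and 3.66 to 7.73 in WT saline. Tendon markers, 3 of 5 listed, summed to 9.35 to 20.8 FPKM in KO Ang II, 5.58 to 13.5 in WT Ang II and 4.97 to 9.37 in WT saline. Macrophage markers, whose cells can also express Spp1, summed to 268.8 to 552.5 FPKM in KO Ang II, 375.1 to 521.8 in WT Ang II and 242.1 to 361.7 in WT saline, and their part in the values below was not tested.

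The genes whose levels ran most like each member over the 15 libraries are given as a description, since they are the highest of 12645. Enpp1 was closest to Ccdc149 (r = 0.955, rho = 0.946) and to Jam3, a junction adhesion molecule (r = 0.935, rho = 0.868). Mgp was closest to Rab31, a small GTPase (r = 0.924, rho = 0.886), and to Slc2a10, a glucose transporter family member (r = 0.898, rho = 0.804). Comp was closest to Aspn, which encodes the matrix protein asporin (r = 0.825, rho = 0.786), and to Map3k11 (r = 0.772, rho = 0.893). Ank ran most like Dapk3 (r = 0.853, rho = 0.696) and Acan, the aggrecan core protein of cartilage (r = 0.84, rho = 0.686). Bmp4 ran most like Pip5k1a (r = 0.841, rho = 0.771) and Tbce (r = 0.84, rho = 0.836), and Chad most like Agap1 (r = 0.794, rho = 0.792) and Dock6 (r = 0.786, rho = 0.743). For Bmp2 and Alpl the nearest genes were Rab3il1 (r = 0.908, rho = 0.629) and Cul4a (r = 0.907, rho = 0.604), and Lancl2 (r = 0.862, rho = 0.395) and Rev1 (r = 0.839, rho = 0.745). The gap between r and rho goes with low values in few libraries. Cul4a had 14.2 FPKM in WTNS_369, the library lowest in Bmp2, and 25.7 to 29.2 FPKM in the other 14. Lancl2 had 0.434 FPKM in WTNS_369 and 1.00 FPKM in WTNS_550, the libraries that list Alpl at 0, and 4.33 to 8.05 FPKM in the other 13. Both genes were picked for their likeness, so that they are low in these libraries was fixed by that choice.

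The wider pathways around these genes were taken as 5 lists, and limma called 0 genes of any list in any comparison. Of the BMP pathway 28 of 33 genes were tested. In WT Ang II over WT saline 21 of the 28 were higher, with a median log2 difference of 0.18 beside 0.01 over all genes, and 3 had an unadjusted p below 0.05. The count of higher genes was 8 of 28 in KO Ang II over WT Ang II, with a median of -0.20 beside -0.01 and 1 gene below that p. It was 14 of 28 in KO Ang II over WT saline, with a median of 0.003 and 1 gene below that p. The first 2 of these comparisons share the WT Ang II libraries. Markers of the vessel wall lay on the same side as the BMP list in both. Smooth muscle markers had a median of 0.27 in WT Ang II over WT saline (9 of 10 higher) and -0.41 in KO Ang II over WT Ang II (1 of 10 higher). Fibroblast markers had a median of 0.18 in WT Ang II over WT saline (8 of 8 higher) and -0.39 in KO Ang II over WT Ang II (0 of 8 higher), and the part of either in the BMP list was not tested. Smad6 and Smad7 encode the inhibitory SMADs, which BMP signalling itself induces. Smad6 had a mean of 10.48 ± 3.51 FPKM in KO Ang II, 13.6 ± 3.61 in WT Ang II and 8.63 ± 1.23 in WT saline (SD, n = 5 each), with a log2 difference of 0.58 ± 0.21 (SE) in WT Ang II over WT saline (limma adjusted p = 0.941). Smad7 had 9.69 ± 2.06 FPKM in KO Ang II, 12.5 ± 2.98 in WT Ang II and 8.60 ± 1.20 in WT saline, with a difference of 0.47 ± 0.17 (adjusted p = 0.941). Id3, a common BMP target, averaged 51.8 ± 4.64 FPKM in KO Ang II, 64.1 ± 13.8 in WT Ang II and 51.6 ± 5.43 in WT saline. Id2, also on the list, was among the 8 genes higher in KO Ang II than in WT Ang II. It averaged 82.8 ± 20.4 FPKM in KO Ang II, 72.3 ± 12.7 in WT Ang II and 61.4 ± 15.6 in WT saline. Bambi, a decoy receptor, averaged 1.82 ± 0.260 FPKM in KO Ang II, 2.61 ± 0.583 in WT Ang II and 2.16 ± 0.326 in WT saline.

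Of 25 genes of phosphate, pyrophosphate and mineral inhibition 18 were tested, with medians of 0.10 in WT Ang II over WT saline (12 of 18 higher), -0.10 in KO Ang II over WT Ang II (8 of 18) and 0.02 in KO Ang II over WT saline (10 of 18). An unadjusted p below 0.05 was reached by 2, 2 and 3 of them. Spp1, which encodes osteopontin, a phosphoprotein that binds mineral, averaged 23.8 ± 25.6 FPKM in KO Ang II (range 7.15 to 69.3, median 13.8), 5.36 ± 1.92 in WT Ang II (2.27 to 7.09) and 5.64 ± 3.22 in WT saline (2.77 to 10.9). The KO Ang II libraries lay above all WT Ang II libraries by a small margin at the lower end, and 141 of 12645 genes had groups that did not overlap in this comparison. The log2 difference of Spp1 was 1.58 ± 0.48 (SE) in KO Ang II over WT Ang II (unadjusted p = 0.00528, limma adjusted p = 0.594). Phospho1, a phosphatase of mineralising cells, averaged 9.67 ± 5.42 FPKM in KO Ang II, 5.40 ± 2.37 in WT Ang II and 23.4 ± 25.7 in WT saline, where the median was 12.6 and 1 library had 68.2, with a difference of -1.49 ± 0.53 in WT Ang II over WT saline (adjusted p = 0.940). Brown adipocyte markers lay on the same side in this comparison, with a median of -1.01 (0 of 8 higher). Their part in the Phospho1 value was not tested. Enpp3, a relative of Enpp1, averaged 4.59 ± 1.30 FPKM in KO Ang II, 6.64 ± 1.73 in WT Ang II and 5.54 ± 0.748 in WT saline.

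Cartilage matrix and chondrocyte regulators had 8 of 27 genes tested, with medians of 0.22 in WT Ang II over WT saline (7 of 8 higher), -0.23 in KO Ang II over WT Ang II (4 of 8) and 0.12 in KO Ang II over WT saline (4 of 8). An unadjusted p below 0.05 was reached by 0, 1 and 0 of them. Fmod, a collagen-binding proteoglycan, averaged 49.3 ± 21.8 FPKM in KO Ang II, 76.5 ± 23.3 in WT Ang II and 64.6 ± 21.2 in WT saline, with a log2 difference of -0.68 ± 0.31 (SE) in KO Ang II over WT Ang II (limma adjusted p = 0.622). Cytl1 had the highest mean of this list, at 283.7 ± 156.4 FPKM in KO Ang II, 436.7 ± 131.3 in WT Ang II and 407.0 ± 201.2 in WT saline. Its difference was -0.72 ± 0.35 in KO Ang II over WT Ang II (adjusted p = 0.622). Cilp and Acan, among the 4 genes higher there, had differences of 0.79 ± 0.53 and 0.48 ± 0.69. Osteoblast genes had 11 of 18 tested, with medians of -0.04, -0.17 and 0.007 in the same 3 comparisons, 5, 4 and 6 of 11 higher, and 0, 2 and 1 below that p. Omd, which encodes osteomodulin, averaged 8.39 ± 3.15 FPKM in KO Ang II, 12.9 ± 2.36 in WT Ang II and 16.9 ± 3.58 in WT saline. Its difference of -0.96 ± 0.20 in KO Ang II over WT saline had the lowest adjusted p of the 5 lists, 0.130, and it was -0.61 ± 0.20 in KO Ang II over WT Ang II (adjusted p = 0.611). Sost, the sclerostin gene, averaged 169.0 ± 41.3 FPKM in KO Ang II, 324.8 ± 145.0 in WT Ang II and 243.8 ± 116.7 in WT saline, with a difference of -0.83 ± 0.38 in KO Ang II over WT Ang II (adjusted p = 0.622). The list of thrombospondins and tendon genes, relatives and neighbours of Comp, had 6 of 10 tested, with medians of 0.24, -0.14 and 0.31, 5, 1 and 4 of 6 higher, and 0, 2 and 0 below that p. Thbs1 averaged 30.7 ± 30.4 FPKM in KO Ang II, where the median was 16.9 and 1 library had 85.1, 28.6 ± 11.7 in WT Ang II and 15.5 ± 2.27 in WT saline, with a difference of 0.76 ± 0.40 in WT Ang II over WT saline (adjusted p = 0.941).

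**Figure D5:**
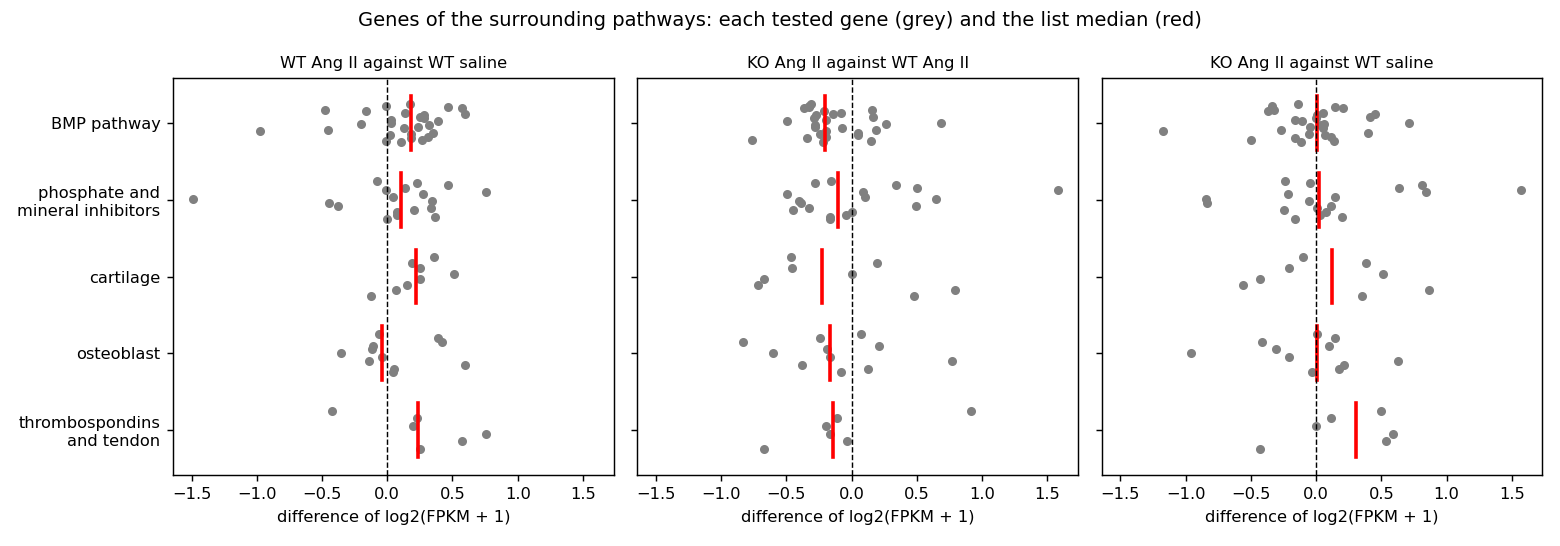
Difference of log2(FPKM + 1) (horizontal axis) of each tested gene of 5 pathway lists (grey points, rows) for WT Ang II over WT saline, KO Ang II over WT Ang II and, in the last panel, KO Ang II over WT saline, with the median of each list as a red line. The medians of the BMP pathway lie at 0.18, -0.20 and 0.003, and no gene passed the test in any panel.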

How the data were processed

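Transcript levels were measured by RNA-seq in mouse abdominal aorta. Per the labels' protocols, TRIzol was used to extract RNA, and 1 µg of total RNA went into each NEBNext Ultra library. The authors deposited FPKM for Ensembl transcripts and for transcripts they assembled themselves. Per the submitters' processing notes, bcl2fastq, FastQC, fastp and the mm10 genome were used; neither the aligner nor the program that computed FPKM is given in the sources used here. There were 49773 transcripts in the list for WT and 49714 in that for KO Ang II, each averaging 0.5 FPKM or more in a group. GENCODE M21 on GRCm38 gave gene names for 32618 of 32654 Ensembl transcripts in the WT tables and 32908 of 32945 in the KO Ang II table. Transcripts listed for one set of libraries alone counted as 0 in the others, which touched 2220 tested genes.

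FPKM of the listed transcripts with a GENCODE gene name were added up per gene. Transcripts that the authors assembled were left out. They held 12.23% (WTNS_373) to 15.78% (WTNS_547) of the FPKM sum of a library, and their part in the values above was not tested. Genes averaging 1 FPKM or more were tested on log2(FPKM + 1), a scale that understates changes of low genes, with limma 3.58.1 (trend and robust options, R 4.3.3), all 15 libraries in 1 model, without covariates, and Benjamini-Hochberg adjustment. Between 98.9% and 99.3% of low values lay within 0.05 reads of a whole number at the depths given; no count test was run. Correlations used 100000 permutations, two-sided (scipy 1.17.1). The fit was tested on simulated data with known changes. It called 55% to 61% of genes given a log2 change of 1, by comparison, and 82% to 87% of those given a change of 2. Promoter windows are from RefSeq (GRCm38.p6), with a window for 6 of the 10 genes. Named list genes were all those that passed, otherwise the 3 of highest mean and the 2 of smallest p in WT Ang II over WT saline and in KO Ang II over WT Ang II; the text gives part of these. The genes, lists and tests were chosen with earlier results of these data known. Alternatives were a pseudocount of 0.1, no filter, only transcripts listed for all 15 libraries, quantile normalization, only the 2 groups compared, marker covariates, libraries matched on intestinal transcripts, and leaving out each library.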

Additional observations from a re-analysis of the deposited data

Results flagged for a closer look

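Enpp1 in WTAngII580 was 5.65 FPKM, a library far from the other 4 of its group, the nearest of which had 11.5 FPKM. The gap was 0.77 of the whole range, above the critical value of 0.71 for 5 samples. In all, 25 groups of values were checked, and chance flags about 1 in 20. The same library had the highest sum of brown adipocyte markers of its group, 2393 FPKM, and the lowest sum of smooth muscle markers, 7115 FPKM. Their part in the low value was not tested.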

How the results depend on the processing

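Of 416 recomputed differences of the 8 genes, 29 reversed and the rest kept their direction, and 0 passed the test, with a smallest limma adjusted p of 0.289. Reversed differences were 0.31 or less in size in the original fit. Quantile normalization gave -0.084 for Mgp in KO Ang II over WT Ang II. With marker levels as covariates, Enpp1 was -0.30 in WT Ang II over WT saline and 0.10 in KO Ang II over WT Ang II, Bmp2 was -0.10 in KO Ang II over WT Ang II, and for KO Ang II over WT saline it was -0.021, Bmp4 was 0.33 in KO Ang II over WT Ang II, and 0 genes in all were called in KO Ang II over WT saline, against 13 without covariates. Of these 13 genes, 8 were the intestinal markers. Libraries matched on intestinal transcripts gave 0.14 for Enpp1 in KO Ang II over WT Ang II, with WTAngII580 and WTAngII581 alone as WT Ang II. Without the 2 WT saline libraries that list Alpl at 0, Bmp4 was 0.078 in WT Ang II over WT saline and 0.061 in KO Ang II over WT saline, and 2 genes were called in each of these comparisons. Leaving out 1 library at a time, the range in KO Ang II over WT Ang II was -0.25 to 0.17 for Bmp4, -0.014 to 0.20 for Mgp and -0.32 to 0.054 for Comp. In KO Ang II over WT saline it was -0.27 to 0.041 for Enpp1 and -0.31 to 0.043 for Chad. In WT Ang II over WT saline it was -0.31 to 0.10 for Bmp4, -0.058 to 0.36 for Bmp2, -0.039 to 0.35 for Enpp1 and -0.16 to 0.050 for the retained-intron ratio of Mgp. Genes called ranged over 0 to 1 in WT Ang II over WT saline (1 without WTNS_550), 0 to 7 in KO Ang II over WT Ang II (7 without WTAngII580, 2 without WTAngII581) and 7 to 15 in KO Ang II over WT saline (7 without KOAngII537, 8 without WTNS_547). The causes were not tested. No paired analysis was possible because no replicate number is shared between groups.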
